A study of Mus musculus with 18 samples.

Results

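Genes that set the fate of effector T cells were examined in regulatory T cells (Tregs) with and without the chromatin remodeler CHD8. The 9 genes were Tbx21, Eomes, Gata3, Rora, Bcl6, Prdm1, Irf4, Maf and Id2, and they were taken by name from 35865 genes listed under a single name in the RNA-seq table. All 9 passed the filter on low values, as did 15240 genes in all, which were the genes compared. Prdm1 (14.5 ± 4.38 against 5.95 ± 0.919 TPM, mean ± SD, n = 2 mice each) and Id2 (149.35 ± 23.5 against 84.25 ± 13.5 TPM) were higher in Chd8-/- Tregs than in WT Tregs, and Tbx21 was lower (2.30 ± 0.566 against 8.95 ± 5.59 TPM). None of these differences passed the test across all genes. TPM is a read count divided by gene length and scaled to the same total in each library.

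Naive CD4+ T cells become T helper 1 (Th1), Th2, Th17 or follicular helper cells under the control of factors that switch on 1 programme and hold back the others. T-bet (Tbx21) and Eomes drive Th1 and cytotoxic genes, GATA3 drives Th2 genes, RORα (Rora) takes part in the Th17 programme, and BCL6 is the defining repressor of follicular helper cells. BLIMP-1 (Prdm1) and BCL6 repress each other. Tregs use the same factors under Foxp3: IRF4 with its partner BATF, and BLIMP-1, mark effector Tregs, whereas BACH2, TCF-1 and ID3 belong to the resting state. The comparison sets Tregs of Chd8-/- mice against Tregs of WT mice for these effector T cell programmes. The study reports fatal inflammation in Chd8-/- mice, so loss of CHD8 and an inflamed host cannot be told apart here. In the study, ICOS and GITR protein were raised on Tregs of Chd8-/- mice. They were not raised on CHD8-deficient Tregs of females that also held CHD8-proficient Tregs. PD-1 protein was raised in both settings, and in those females the study reports that CHD8-deficient Tregs were outcompeted by CHD8-proficient Tregs.

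The RNA came from splenic CD4+ T cells sorted for yellow fluorescent protein (YFP), which is fused to Cre and made from the X-linked Foxp3 locus, so that deletion is limited to cells that expressed Foxp3. Chd8-/- mice carried CHD8Flox/Flox with Foxp3YFP-Cre. The WT samples are labelled CHD8flox/flox with Foxp3YFP-Cre/+. The study's methods instead describe WT littermates, and its results define WT mice as Chd8+/+ carrying Foxp3YFP-Cre. In the study, females of that labelled genotype hold CHD8-deficient YFP+ Tregs beside CHD8-proficient YFP- Tregs. If the label holds, the sorted YFP+ cells of the WT samples would be CHD8-deficient too. Which genotype they had was not tested, and WT is used here as the study uses it. Every sample in both groups is labelled as given a poly IC injection, an agent that mimics viral RNA. The mice were sex-matched littermates 5 to 7 weeks old, with 2 libraries per genotype.

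Chd8 itself, the targeted gene, was at 14.9 and 11.4 TPM in the Chd8-/- libraries and at 24.7 and 27.6 TPM in the WT libraries. The groups did not overlap (log2 fold change -0.95, SE 0.291, limma adjusted p = 0.455, and -0.77 without Chd8-/- replicate 2), and the value covers all exons, deleted or not. Foxp3, the defining factor of Tregs, was between 202.8 and 232.1 TPM in all 4 libraries, and the summed TPM of 7 Treg identity markers was 3342.2 to 4005.7. The study describes a male and a female mouse in each genotype. Xist was at 500.2 to 843.3 TPM in all 4 libraries, and the Y-linked genes Ddx3y, Eif2s3y, Kdm5d and Uty were at 0 in all 4. By these genes the libraries did not match that description. Of 136 listed genes found on the Y chromosome only, 7 were above 0 in any library and 2 were at 1 TPM or more.

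Chd8-/- replicate 2 stood apart from the other libraries. Over all genes its log2 values correlated with Chd8-/- replicate 1 at r = 0.8602, against r = 0.9193 between the WT libraries (across genes, which are not independent). The summed TPM of 9 myeloid markers was 1612.8 in this library, 27.5 in Chd8-/- replicate 1 and 178.4 and 187.2 in WT. Lyz2, lysozyme of macrophages and granulocytes, made up most of it at 1360.3 TPM, against 20.0 TPM in Chd8-/- replicate 1 and 77.1 and 60.5 TPM in WT. The 6 erythroid markers summed to 1989.7 TPM, against 8.7 TPM in Chd8-/- replicate 1 and 385.2 and 351.9 TPM in WT, with Hbb-bs at 579.9, 0.0, 113.6 and 127.2 TPM in the same order. Plasma cell markers (5 of 7 listed) summed to 176.2 TPM against 10.5 to 44.4 TPM in the other libraries, and Jchain made up 165.6 TPM of it. B cell markers summed to 142.7 TPM against 31.4 to 46.2 TPM, with Cd79a at 73.7 against 10.1 to 21.8 TPM.

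The remaining lists differed less. Dendritic cell markers summed to 20.1 TPM in Chd8-/- replicate 2, to 4.7 TPM in Chd8-/- replicate 1 and to 9.6 and 9.9 TPM in WT, with Zbtb46 at 8.0, 3.8, 4.1 and 5.0 TPM. CD8 and NK cell markers summed to 55.9, 14.0, 45.0 and 31.6 TPM, with Cd8b1 at 35.9, 7.7, 36.0 and 21.7 TPM. The 2 Chd8-/- libraries therefore lay on opposite sides of WT for the myeloid, erythroid, plasma cell, dendritic cell, and CD8 and NK cell sums. Among single markers of other cell types that passed the filter on low values, the groups did not overlap for S100a8 (5.3 and 16.5 TPM against 0.0 in both WT libraries), Prf1 (2.7 and 4.7 against 0.0 and 1.0), Blk (1.0 and 1.8 against 0.2 and 0.9), Adgre1 (0.0 and 4.3 against 9.4 and 4.5) and Alas2 (8.0 and 7.5 against 15.0 and 21.5). S100a8 and Blk passed that filter through the Chd8-/- libraries alone, so for them the lack of overlap follows from the filter. The log2 fold changes of members and named list genes and the medians of lists are given below with and without Chd8-/- replicate 2, and what part other cells had in it was not tested.

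**Figure D1:**
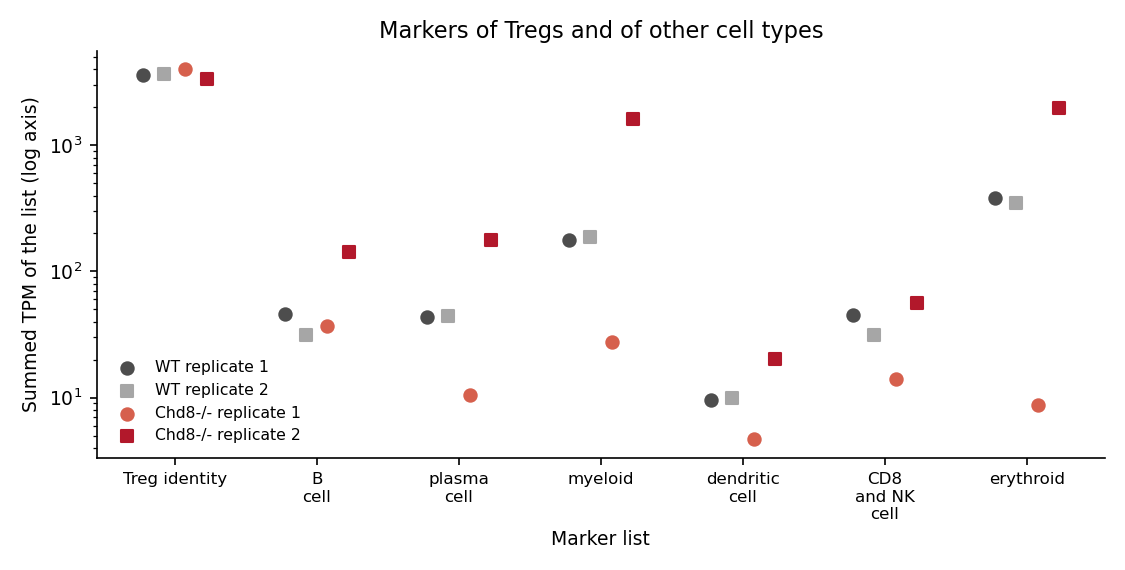
Summed TPM (log axis) of 7 marker lists, 1 symbol per library. Treg identity markers lie between 3342.2 and 4005.7 in all 4 libraries, and Chd8-/- replicate 2 is the highest library for the 6 other cell types.

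To show where the 3 members with the largest differences, and Bcl6, could be read by members of the same group, the 250 bases upstream of their annotated starts are printed, 5′ to 3′ on the gene's strand (RefSeq, GRCm38.p6). Capitals mark matches, on either strand, to any of 7 motifs. The T-box motif was searched as TCACACC. That of GATA factors was AGATAA. ROR factors were given AGGTCA. For BCL6 the letters were TTCNNNGAA, which STAT factors share. MAF and AP-1 had TGANTCA. The E-box, bound by the E proteins that ID2 blocks, was CANNTG. The seventh, for IRF factors and BLIMP-1, was GAAA repeated on the same strand after a gap of 2 bases. The Prdm1 and Bcl6 windows lie inside the annotated gene spans, at a start downstream of the most distal one.
Prdm1, chr10:44458749-44458998, minus strand: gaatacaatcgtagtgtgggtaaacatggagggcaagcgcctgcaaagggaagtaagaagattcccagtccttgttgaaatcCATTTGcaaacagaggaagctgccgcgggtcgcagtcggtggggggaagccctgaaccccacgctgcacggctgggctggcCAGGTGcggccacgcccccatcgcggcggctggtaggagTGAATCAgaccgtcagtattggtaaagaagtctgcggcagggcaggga
Id2, chr12:25096093-25096342, minus strand: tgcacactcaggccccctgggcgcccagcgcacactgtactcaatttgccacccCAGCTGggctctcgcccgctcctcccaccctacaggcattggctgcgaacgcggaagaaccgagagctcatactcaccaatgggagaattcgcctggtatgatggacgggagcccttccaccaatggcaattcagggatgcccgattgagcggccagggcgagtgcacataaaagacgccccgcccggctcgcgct
Tbx21, chr11:97115332-97115581, minus strand: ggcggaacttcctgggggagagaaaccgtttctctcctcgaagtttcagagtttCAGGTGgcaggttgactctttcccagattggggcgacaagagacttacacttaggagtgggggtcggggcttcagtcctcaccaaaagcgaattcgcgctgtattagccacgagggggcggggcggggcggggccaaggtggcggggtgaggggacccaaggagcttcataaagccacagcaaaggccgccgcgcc
Bcl6, chr16:23981284-23981533, minus strand: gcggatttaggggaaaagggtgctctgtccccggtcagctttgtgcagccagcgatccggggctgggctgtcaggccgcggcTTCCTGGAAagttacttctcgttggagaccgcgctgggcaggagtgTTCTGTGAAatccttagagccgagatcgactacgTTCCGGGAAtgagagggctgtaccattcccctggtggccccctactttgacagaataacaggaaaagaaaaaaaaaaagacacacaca

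Prdm1 held TGAATCA, a match to the MAF and AP-1 motif, 48 to 42 bases upstream of the start, which 6.75% of 32851 such windows of all genes held, and E-boxes at 168 to 163 and 87 to 82 bases. Id2 and Tbx21 each held 1 E-box, at 196 to 191 bases, a motif present in 66.2% of windows. Bcl6 held 3 matches to its own product's motif (7.02% of windows hold 1 or more), at 168 to 160, 122 to 114 and 88 to 80 bases, and the second Bcl6 window, not printed, held 1 more. Eomes held the IRF and BLIMP-1 motif at 154 to 145 bases (2.98% of windows). The T-box, GATA and ROR letters, in 3.33%, 9.99% and 14.0% of windows, were in none of the 9 windows of the 8 members matched (all but Maf). A match is a description of these letters, not a binding site.

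The 9 genes spanned a wide range of levels. In WT Tregs, Maf was first at a mean of 225.95 TPM, followed by Id2 (84.25), Gata3 (68.65), Irf4 (63.35), Bcl6 (36.75), Rora (11.6), Tbx21 (8.95), Prdm1 (5.95) and Eomes (2.6), 86.9 times lower than Maf. Among neighbours in this order, the libraries of Id2 and Gata3, of Gata3 and Irf4, of Rora and Tbx21, and of Tbx21 and Prdm1 overlapped. In Chd8-/- Tregs Maf (171.65 TPM) and Id2 (149.35) came first and their libraries overlapped, and by the means Prdm1 (14.5) stood above Rora (9.80) and Eomes (4.55) above Tbx21 (2.30). The libraries of Gata3 and Irf4, of Prdm1 and Rora, of Rora and Eomes, and of Eomes and Tbx21 also overlapped, and in Chd8-/- replicate 1 Prdm1 (11.4 TPM) was below Rora (12.9 TPM) and Eomes (2.4 TPM) below Tbx21 (2.7 TPM). Levels between genes rest on division by gene length, and the annotated exons of Rora add up to 51045 bases, against 1272 bases for Id2 and 9087 bases for Prdm1. The study's methods name both a 3′ droplet assay and a standard RNA library kit, and levels between genes would differ if reads came from transcript ends alone.

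**Figure D2:**
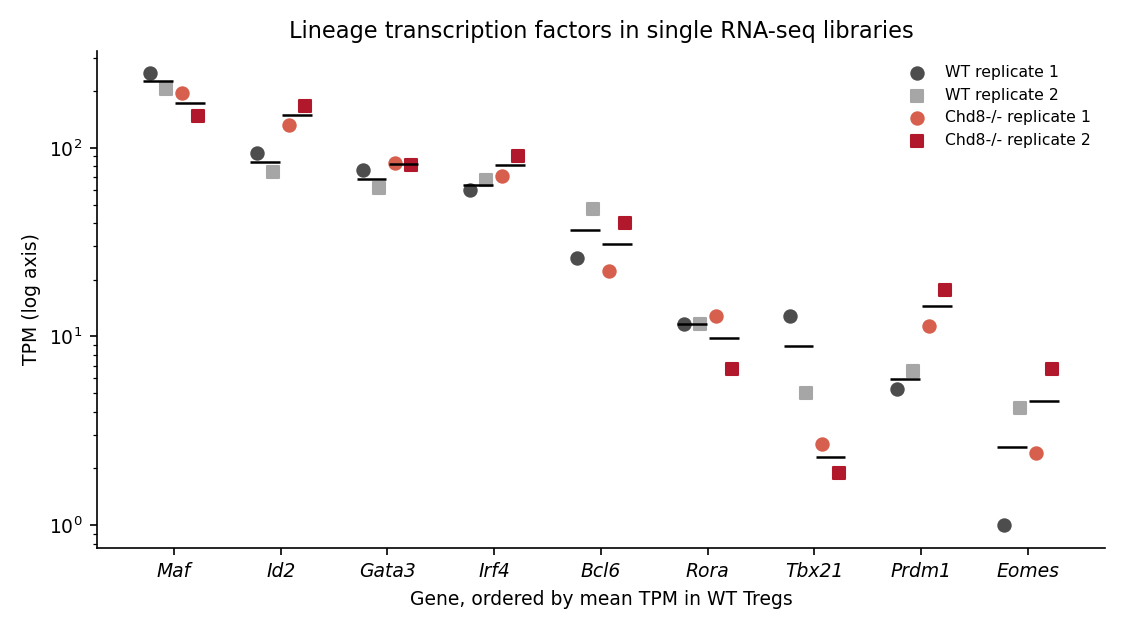
TPM (log axis) of the 9 genes in each of the 4 libraries, ordered by mean TPM in WT, with short lines at the group means. Prdm1 and Id2 in both Chd8-/- libraries lie above both WT libraries, Tbx21 lies below, and Eomes, Rora and Bcl6 overlap.

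In 4 of the 9 genes (Prdm1, Id2, Irf4 and Gata3) both Chd8-/- libraries were above both WT libraries, as were 14.8% of all genes compared. In 2 (Tbx21 and Maf) both were below, as were 27.8% of all genes, and in 3 (Eomes, Rora and Bcl6) the groups overlapped. The groups were thus apart in either direction in 6 of the 9 members, and in 42.6% of all genes. No member passed an adjusted p of 0.05 in limma, nor did any of the 15240 genes (0.0%), the smallest adjusted p being 0.0807. At an unadjusted p under 0.05 there were 2 members (Prdm1 and Id2) and 1555 of all genes (10.2%). Past a log2 fold change of 1, Prdm1 was the only member higher (5.12% of all genes) and Tbx21 the only member lower (11.6% of all genes). The median log2 fold change was 0.26 over the 9 members and -0.15 over all genes, of which 38.5% were higher in Chd8-/-. The median of the members was 0.14 without Chd8-/- replicate 2, -0.023 without WT replicate 1, and 0.013 where a mean of 5 TPM or more was required, which left out Eomes. With quantile normalization the median of all genes was 0.00 and every member kept its direction, while the genes with both Chd8-/- libraries above or below WT went from 2261 and 4233 to 3196 and 3242.

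BLIMP-1, encoded by Prdm1 (chr10:44437174-44528558, GRCm38, minus strand), is a repressor that ends follicular and memory programmes and is needed for interleukin-10 in effector Tregs. Prdm1 was at 11.4 and 17.6 TPM in the Chd8-/- libraries and at 5.3 and 6.6 TPM in the WT libraries. Every Chd8-/- value was above every WT value, and the ratio of the means was 2.44. The log2 fold change was 1.13 (SE 0.381, 95% confidence interval 0.11 to 2.16, limma adjusted p = 0.470), and 4.12% of genes had a higher one. Without Chd8-/- replicate 2 it was 0.84. Il10, which encodes interleukin-10 and was named after its values were seen, overlapped between genotypes. It was at 3.8 and 1.7 TPM in Chd8-/- against 2.8 and 19.4 TPM in WT. The log2 fold change of Il10 was -1.29, and -0.875 without Chd8-/- replicate 2.

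ID2 (Id2, chr12:25093799-25096092, minus strand) is an inhibitor that binds E proteins and keeps them off DNA, and it is high in effector T cells. Id2 was at 132.7 and 166.0 TPM in the Chd8-/- libraries against 93.8 and 74.7 TPM in WT. The groups did not overlap, and the gap between the libraries of each genotype (0.32 and 0.33 on the log2 scale) was smaller than the difference between genotypes. The log2 fold change was 0.82 (SE 0.232, interval 0.19 to 1.44, limma adjusted p = 0.443, the lowest of the 9 genes), and 0.66 without Chd8-/- replicate 2.

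Tbx21 (chr11:97098007-97115331, minus strand) encodes T-bet, the defining factor of Th1 cells, which also equips Tregs that restrain Th1 responses. It was at 2.7 and 1.9 TPM in the Chd8-/- libraries and at 12.9 and 5.0 TPM in WT. Both Chd8-/- values were below both WT values, but the WT libraries themselves were 1.21 apart on the log2 scale. The log2 fold change was -1.48 (SE 0.561, interval -2.99 to 0.03, limma adjusted p = 0.493). It was -1.30 without Chd8-/- replicate 2, and WT replicate 1 set much of its size: without that library it was -0.87.

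Eomes (chr9:118478186-118486132, plus strand), the T-box relative of T-bet in cytotoxic and memory cells, was the lowest of the 9 genes in WT. It was at 2.4 and 6.7 TPM in the Chd8-/- libraries and at 1.0 and 4.2 TPM in WT. The groups overlapped, and each genotype's libraries were further apart (1.18 and 1.38 on the log2 scale) than the genotypes (log2 fold change 0.67, SE 0.724, limma adjusted p = 0.779). Without Chd8-/- replicate 2 the log2 fold change was 0.08, and without WT replicate 1 it was -0.02.

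Irf4 (chr13:30749233-30766981, plus strand), an antigen receptor-induced factor that binds DNA with BATF, was at 70.8 and 90.6 TPM in Chd8-/-, against 59.4 and 67.3 TPM in WT. Gata3 (chr2:9857078-9887953, minus strand), the Th2 factor that activated Tregs also use, was at 83.5 and 80.8 TPM in Chd8-/-, against 76.4 and 60.9 TPM in WT. For both genes the Chd8-/- libraries lay above the WT libraries by a small margin. The log2 fold change was 0.34 (SE 0.230, limma adjusted p = 0.662) for Irf4 and 0.26 (SE 0.216, limma adjusted p = 0.709) for Gata3. Without Chd8-/- replicate 2 these were 0.16 and 0.29, and Gata3 was at 0.10 without WT replicate 2.

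Maf (chr8:115703253-115706894, minus strand) encodes c-MAF, an activator of interleukin-10 and of follicular and Th17 genes. It was at 195.3 and 148.0 TPM in Chd8-/-, against 247.9 and 204.0 TPM in WT. The groups did not overlap, though Chd8-/- replicate 1 was close to WT replicate 2 (log2 fold change -0.40, SE 0.229, interval -1.02 to 0.22, limma adjusted p = 0.611). Without Chd8-/- replicate 2 the log2 fold change was -0.20.

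Bcl6 (chr16:23965050-23988866, minus strand) was at 22.2 and 39.7 TPM in Chd8-/-, against 26.2 and 47.3 TPM in WT. Its spread within each genotype (0.81 and 0.83 on the log2 scale) was larger than the difference between them (log2 fold change -0.24, SE 0.453, limma adjusted p = 0.876). Rora (chr9:68653404-69388246, plus strand) was at 12.9 and 6.7 TPM in Chd8-/-, against 11.6 TPM in both WT libraries. The Chd8-/- libraries of Rora lay on either side of WT (log2 fold change -0.28, SE 0.419, limma adjusted p = 0.838). Without Chd8-/- replicate 2 the log2 fold changes were -0.64 for Bcl6 and 0.14 for Rora.

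**Figure D3:**
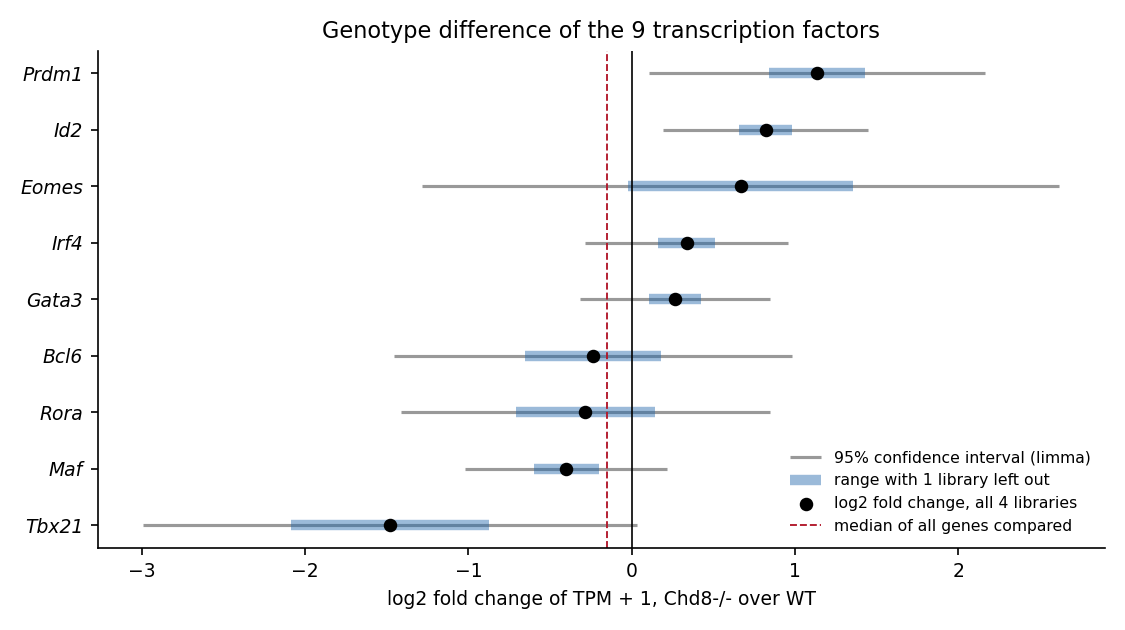
log2 fold change of TPM + 1 in Chd8-/- over WT Tregs for the 9 genes, with limma's 95% confidence interval (thin bars) and the range when any 1 library is left out (thick bars). The intervals of Prdm1 and Id2 lie above 0, that of Tbx21 ends at 0.03, and the thick bars of Eomes, Bcl6 and Rora cross 0.

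In bulk RNA, fewer cells with a transcript and less of it in each cell cannot be told apart. Some transcripts overlap members, and the counting is not stated to use strand. Gm15511, opposite to Rora and sharing 82 exon bases with it, was at 46.6 and 84.4 TPM in Chd8-/-, against 44.2 and 52.8 TPM in WT, above Rora itself. Gm31527 shares 292 bases with Bcl6 and Gm33408 shares 173 with Eomes, at 2.8 TPM or less in every library.

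Ratios within a library set a member against a partner or antagonist. The 6 pairs were chosen after the values were seen and are given as a description, as log2 ratios of TPM + 1. Prdm1 over Bcl6, which repress each other, was -0.90 and -1.13 in Chd8-/- against -2.11 and -2.67 in WT. Prdm1 over Bach2, which represses Prdm1 in resting cells, was 0.63 and 1.03 against -1.68 and -1.75. In all 4 libraries Bcl6 exceeded Prdm1, whereas Bach2 exceeded Prdm1 in WT and was below it in Chd8-/-.

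Id2 and Id3 both inhibit E proteins but mark effector and resting T cells. Id3 was at 51.4 and 16.9 TPM in Chd8-/-, against 193.8 and 151.9 TPM in WT (log2 fold change -2.49, SE 0.571, limma adjusted p = 0.410), with a log2 fold change of -1.72 without Chd8-/- replicate 2. Id2 over Id3 was 1.35 and 3.22 in Chd8-/- and -1.04 and -1.01 in WT, so Id3 was the higher of the 2 in WT and Id2 in Chd8-/-. Irf4 over Irf8 was 3.36 and 3.54 in Chd8-/- and 2.28 and 1.93 in WT, with Irf8 at 6.0 and 6.9 against 11.4 and 16.9 TPM. Tbx21 over Gata3 was -4.51 and -4.82 against -2.48 and -3.37. Tbx21 over Eomes was 0.12 and -1.41 against 2.80 and 0.21, where the lower WT and the higher Chd8-/- library were 0.21 and 0.12.

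**Figure D4:**
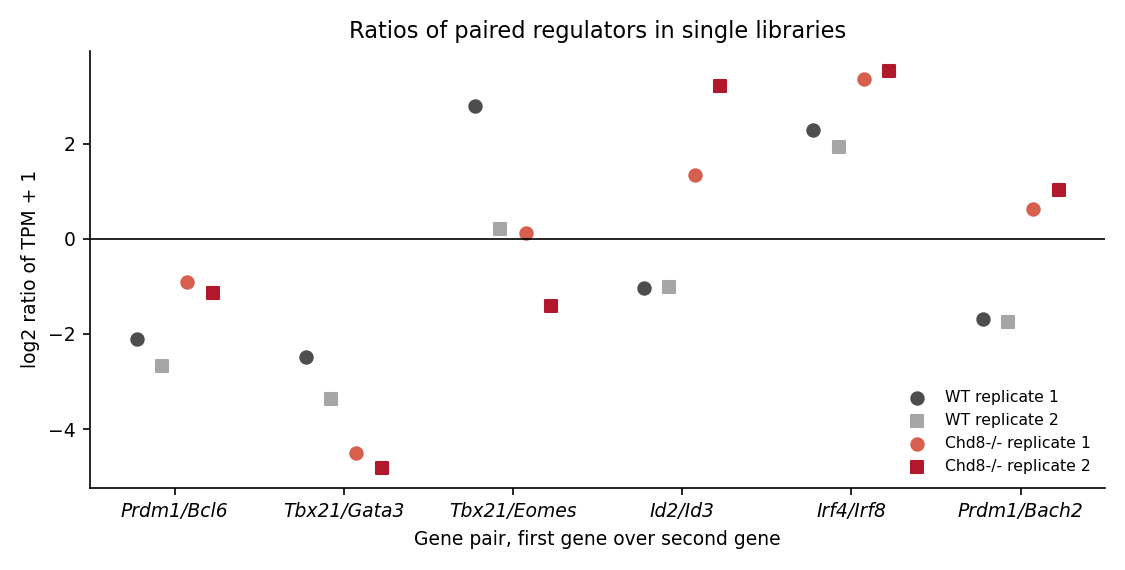
log2 ratio of TPM + 1 for 6 gene pairs in each of the 4 libraries, with 0 where both genes are equal. Id2 over Id3 and Prdm1 over Bach2 are above 0 in both Chd8-/- libraries and below 0 in both WT libraries.

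The genes that the members act on or with were followed in lists of known programmes. The lists were chosen with earlier results of these data known, so their counts are given as a description. Against the background of 14.8% of genes above and 27.8% below WT in both Chd8-/- libraries, 16 of 23 genes of the effector Treg programme were above and 2 below, with a median log2 fold change of 0.73. No gene of this or any other list passed an adjusted p of 0.05 in limma. At an unadjusted p under 0.05, 12 of the 23 were higher (3.9% of all genes) and 2 lower (6.3%). Without Chd8-/- replicate 2 the median was 0.81 and 18 of 23 were higher, and with any 1 library left out the median was 0.64 to 0.81.

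Havcr2, the inhibitory receptor TIM-3, had the largest difference of the list, at 38.7 and 73.8 TPM in Chd8-/- against 5.9 and 6.7 TPM in WT (log2 fold change 2.90, SE 0.407, limma adjusted p = 0.373). Itgae, the integrin CD103 that holds T cells in epithelia, was at 120.4 and 99.2 against 23.0 and 26.8 TPM (2.09, SE 0.232, limma adjusted p = 0.373). Gzmb, the cytotoxic protease granzyme B, was lower, at 11.7 and 3.1 against 35.6 and 27.6 TPM (-2.16, SE 0.631, limma adjusted p = 0.447). Leaving out Chd8-/- replicate 2 gave log2 fold changes of 2.44 for Havcr2, 2.23 for Itgae and -1.35 for Gzmb. Among the Treg identity markers, which overlap this list, Tnfrsf18 (GITR) was at 381.9 and 289.4 TPM against 169.5 and 236.5 TPM in WT. Ctla4 was at 534.7 and 349.5 against 277.6 and 332.8 TPM, Cd4 at 326.2 and 323.6 against 403.4 and 431.8 TPM, and Cd3e at 1309.5 and 1267.2 against 1547.9 and 1527.6 TPM. The log2 fold changes of these 4 genes were 0.73, 0.51, -0.36 and -0.26, and 0.93, 0.81, -0.35 and -0.23 without Chd8-/- replicate 2.

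The resting Treg programme lay the other way, with a median log2 fold change of -0.78 (-0.74 without Chd8-/- replicate 2). Of its 15 genes, 10 were below and 2 above WT in both Chd8-/- libraries, against 27.8% and 14.8% of all genes. At an unadjusted p under 0.05, 9 were lower (6.3% of all genes) and 1 was higher (3.9%). Id3 led it (above), and Ly6c1, a surface marker of resting T cells, was at 9.0 and 2.3 TPM in Chd8-/- against 36.1 and 26.4 TPM in WT (-2.47, SE 0.633, limma adjusted p = 0.430). Il7r, the receptor for the survival cytokine interleukin-7, was higher, at 504.5 and 366.8 against 149.7 and 126.7 TPM (1.64, SE 0.234, limma adjusted p = 0.373). Ly6c1 was at -1.67 and Il7r at 1.86 on the log2 scale without Chd8-/- replicate 2. Several lists share genes (Icos, Ccr8 and Batf, for example), so their counts are not independent.

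**Figure D5:**
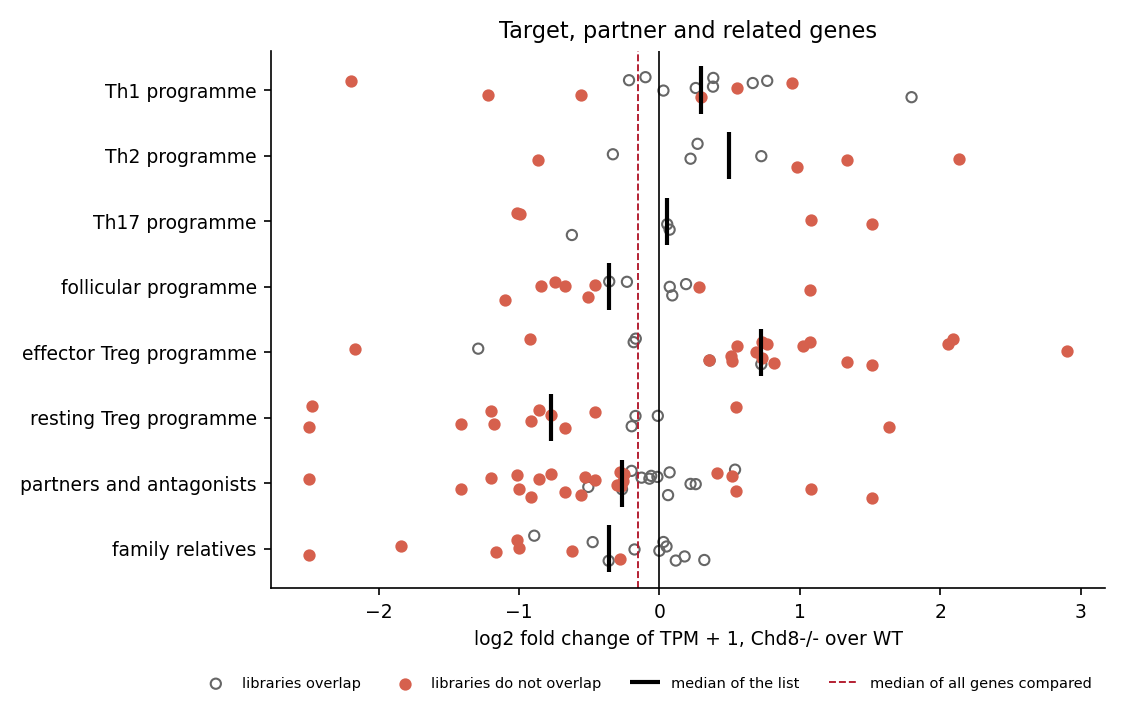
log2 fold change of TPM + 1 in Chd8-/- over WT Tregs, 1 point per gene compared, for 8 lists; filled points mark genes whose libraries do not overlap between genotypes, and bars mark list medians. The medians of the effector and resting Treg programmes are 0.73 and -0.78, against -0.15 for all genes.

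Target genes of T-bet and Eomes in the Th1 programme were split. Of 15 genes compared, 10 were higher (38.5% of all genes were) and 5 lower, and the median was 0.30 (0.12 without Chd8-/- replicate 2). Of the 15, 3 were above and 3 below WT in both Chd8-/- libraries, against 14.8% and 27.8% of all genes. Ccl5, a chemokine of cytotoxic and memory T cells, was at 10.1 and 157.0 TPM in Chd8-/- against 232.0 and 157.6 TPM in WT, so 1 Chd8-/- library was near WT and the other far below it. Its log2 fold change was -2.20 (SE 1.327, limma adjusted p = 0.630), -4.11 without Chd8-/- replicate 2 and -0.28 without Chd8-/- replicate 1. Tnf was at 35.1 and 16.7 against 66.7 and 50.0 TPM, and Il12rb1, a chain of the interleukin-12 receptor, at 11.0 and 22.9 against 8.8 and 6.9 TPM. Their log2 fold changes were -1.22 and 0.94, and -0.70 and 0.45 without Chd8-/- replicate 2. Ifng, the main Th1 cytokine, overlapped between genotypes, at 8.0 and 6.6 against 9.3 and 2.9 TPM. Its log2 fold change was 0.38, and 0.51 without Chd8-/- replicate 2. It was named after its values were seen. By protein staining, the study reports raised interferon-γ, interleukin-4, interleukin-13 and interleukin-17 in Tregs of Chd8-/- mice, in splenocytes stimulated in culture. No such stimulation is described for the cells used for RNA.

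In the Th2 programme downstream of GATA3, 6 of 8 genes compared were higher, against 38.5% of all genes. The median was 0.50, but 0.01 without Chd8-/- replicate 2. Of these genes, 3 were above and 1 below WT in both Chd8-/- libraries, against 14.8% and 27.8% of all genes. The 1 below was Ccr4, at 29.7 and 17.6 TPM in Chd8-/- against 46.9 and 38.5 TPM in WT. Its log2 fold change was -0.86, and -0.50 without Chd8-/- replicate 2. Il4, the Th2 cytokine, was at 7.6 and 1.9 TPM in Chd8-/- against 0.0 and 0.3 TPM in WT. It passed the filter on low values through the Chd8-/- libraries alone, so its direction, counted among the 6, follows from the filter. Ccr8, a chemokine receptor of Th2 cells and tissue Tregs, was at 101.1 and 86.2 against 26.8 and 49.4 TPM (log2 fold change 1.33, SE 0.359, limma adjusted p = 0.434). Areg, the tissue repair factor amphiregulin, was at 39.6 and 27.5 against 17.1 and 15.5 TPM. The log2 fold changes of Il4 and Areg were 2.13 and 0.98, and without Chd8-/- replicate 2 those of Il4, Ccr8 and Areg were 2.92, 1.45 and 1.23.

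In the Th17 programme 4 of 7 genes compared were higher, against 38.5% of all genes (median 0.06, and -0.07 without Chd8-/- replicate 2). Of these genes, 2 were above and 2 below WT in both Chd8-/- libraries, against 14.8% and 27.8% of all genes. Batf, the partner of IRF4, was at 502.4 and 784.6 TPM in Chd8-/- against 231.1 and 207.1 TPM in WT (log2 fold change 1.52, SE 0.269, limma adjusted p = 0.402). Ahr, a ligand-activated receptor of Th17 cells and Tregs, was at 45.2 and 24.7 against 17.4 and 13.5 TPM, a log2 fold change of 1.08. Batf was at 1.2 and Ahr at 1.50 on the log2 scale without Chd8-/- replicate 2. Il6ra, named after its values were seen, was lower, at 75.6 and 72.8 TPM in Chd8-/- against 162.2 and 136.2 TPM in WT. Its log2 fold change was -0.99, and -0.97 without Chd8-/- replicate 2.

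Genes of the follicular programme, under BCL6 and MAF, were higher in 5 of 13 compared, a share equal to the 38.5% over all genes. The median was -0.36 (-0.38 without Chd8-/- replicate 2). Of the 13, 6 were below and 2 above WT in both Chd8-/- libraries, against 27.8% and 14.8% of all genes. Cxcr5, the receptor that guides T cells into follicles, was at 60.6 and 31.8 TPM against 88.8 and 102.1 TPM in WT (log2 fold change -1.10, SE 0.369, limma adjusted p = 0.470). Il6st, the shared chain of interleukin-6 family receptors, was at 167.8 and 158.5 against 265.2 and 325.9 TPM. Icos, a costimulatory receptor of follicular helper cells and effector Tregs, was at 254.0 and 212.5 against 110.0 and 110.3 TPM (1.07, SE 0.185, limma adjusted p = 0.402). The log2 fold changes without Chd8-/- replicate 2 were -0.64 for Cxcr5, -0.81 for Il6st (-0.85 with all libraries) and 1.2 for Icos.

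Of the partners and antagonists of the members, 10 of 34 compared were higher (38.5% of all genes were) and 24 lower (median -0.26, and -0.29 without Chd8-/- replicate 2). Of the 34, 17 were below and 5 above WT in both Chd8-/- libraries, against 27.8% and 14.8% of all genes. Besides Id3 and Batf, the largest difference was in Bach2, at 7.0 and 8.1 TPM in Chd8-/- against 19.2 and 24.6 TPM in WT (log2 fold change -1.41, SE 0.315, limma adjusted p = 0.408, and -1.51 without Chd8-/- replicate 2). Family relatives of the members were below WT in 7 and above it in 0 of 17 compared, against 27.8% and 14.8% of all genes. Their median was -0.36 (-0.13 without Chd8-/- replicate 2). Besides Id3, Irf7, the regulator of type I interferon genes, was at 8.9 and 16.9 against 32.4 and 25.5 TPM, a log2 fold change of -1.16, and of -1.59 without Chd8-/- replicate 2.

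The gene of the programme lists with the profile nearest to each member over the 4 libraries (smallest distance between log2 values centred on their mean, among 91 candidates) was taken as a description. For Id2 it was Entpd1, the ectoenzyme CD39 of effector Tregs, at a distance of 0.132, with 9 of all genes compared closer still. Entpd1 was at 14.6 and 18.6 TPM in Chd8-/- against 11.0 and 8.8 TPM in WT (log2 fold change 0.69, and 0.53 without Chd8-/- replicate 2). For Prdm1 it was Fgl2, a suppressive mediator of Tregs, at 52.3 and 50.8 against 23.6 and 26.1 TPM (log2 fold change 1.02, and 1.05 without Chd8-/- replicate 2, distance 0.465, with 180 genes closer). For Tbx21 it was Tnf (0.788, 261 genes closer), for Rora Nt5e (0.115, 51), for Irf4 Stat6 (0.14, 73), for Maf Tcf12 (0.203, 231) and for Gata3 Prdm2 (0.265, 416). Eomes and Bcl6 were both nearest to Runx3 (0.587 and 0.499, with 112 and 375 genes closer), at 23.4 and 43.3 against 19.3 and 36.2 TPM, higher in replicate 2 of both genotypes.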

How the data were processed

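Per the study's methods, the authors trimmed RNA-seq reads (FastQC 0.11.7, Trim Galore 0.4.2, cutadapt 1.9.1), aligned them to mm10 with STAR 2.6.1e, removed duplicates, counted reads on RefSeq genes with featureCounts 1.6.2, and deposited TPM rounded to 0.1. Depth is not kept in TPM, and counting error could not be given an interval. The 4 RNA libraries were grouped by their labels. The table lists 35869 names, of which 4 repeated entries were dropped. Genes reaching 1 TPM in 2 or more libraries were compared as log2(TPM + 1), a scale that understates changes of low genes, with limma 3.58.1 in R 4.3.3 (two-sided, eBayes with trend, adjusted over all genes by Benjamini-Hochberg). With 2 libraries per genotype, the smallest exact permutation p is 0.333. Each p-value sets the difference between genotypes against the spread between these libraries, which limma moderates across genes of similar level.

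The named genes were the 9 members, Chd8, the gene nearest to each member, and in each list up to 3 genes with the largest differences whose groups do not overlap, plus the leading marker of each marker list. Some genes that this rule names are not reported here. The members and lists were chosen with earlier results of these data known. The fit was tested on simulated data. ATAC-seq and CHIP-seq peaks, in mm39 coordinates, were not used here, since the annotation at hand was GRCm38.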

Additional observations from a re-analysis of the deposited data

How the results depend on the processing

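No member passed an adjusted p of 0.05 in limma under any of 11 alternatives, the lowest being 0.211, and outside the fits that left out a library no member changed direction. Tbx21 was -1.78 with a pseudocount of 0.1 TPM and -0.88 with 5 TPM on the log2 scale, and Eomes 0.92 and 0.32. A pseudocount of 5 TPM left 362 genes at a log2 fold change of 1 or more and 690 at -1 or less (781 and 1768 with 1 TPM), and 7 and 9 genes of the programme lists (11 and 14). A mean TPM of at least 5 left 1149 genes at -1 or less, 11351 genes compared and 2 genes past the adjusted p (0 otherwise), neither a member, and left out Eomes. Quantile normalization gave 1146 and 1231 genes past a log2 fold change of 1 up and down, and 3196 and 3242 genes with groups that did not overlap above and below WT (2261 and 4233 as deposited). The median of the Th17 programme was -0.70 with a pseudocount of 0.1 TPM, and that of family relatives -0.15 without a filter and -0.21 with quantile normalization. Jchain was -0.018 with a pseudocount of 0.1 TPM and 0.019 with 1 TPM. The cause of these shifts was not tested.

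With any 1 library left out, a lone library being assumed to vary like the other group, 560 (without WT replicate 1) to 3181 (without Chd8-/- replicate 1) genes had an unadjusted p under 0.05 (1555 with all), 989 to 1371 and 1447 to 3107 genes were past a log2 fold change of 1 up and down, 12 to 18 programme genes were past 1 up, and 3359 to 4948 and 5794 to 8032 genes did not overlap above and below WT. The lowest and highest log2 fold changes were -0.65 and 0.18 for Bcl6, -0.71 and 0.14 for Rora, -0.023 and 1.36 for Eomes, -0.18 and 0.70 for Runx3, -0.65 and 0.28 for Nt5e, -0.005 and 0.45 for Stat6, -0.003 and 0.11 for Prdm2, -1.74 and 0.35 for Cd8b1, -6.92 and 2.26 for Hbb-bs, -1.98 and 2.01 for Jchain, -1.72 and 4.30 for Lyz2, and -0.21 and 0.70 for Zbtb46. List medians ran from -0.73 to -0.13 for family relatives, 0.01 to 0.63 for the Th2 programme, -0.42 to 0.14 for the Th17 programme and -0.52 to -0.03 for the follicular programme.

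Libraries of both genotypes carry the numbers 1 and 2, but the labels tie them to no shared litter or day, and the deviations of same-numbered libraries correlated at -0.01 over genes. With the replicate block 0 genes passed the adjusted p and 1336 had an unadjusted p under 0.05. The planned ATAC-seq and CHD8 peak results and their alternatives were not run, for want of an annotation in the build of the peaks.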

Other observations

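Transcripts beside Gata3 and a partner of IRF4 drew attention after their values were seen, and they are given as values only. The transcript 9230102O04Rik, on the strand of Gata3 and sharing 77 exon bases with it, was at 6.0 and 8.0 TPM in the Chd8-/- libraries and at 0.6 and 0.0 TPM in the WT libraries. On the opposite strand 4930412O13Rik, with no shared exon base, was at 6.9 and 3.9 TPM against 2.5 and 2.1 TPM. For both transcripts the Chd8-/- values lay above the WT values, as did those of Gata3.

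Batf3, a relative of Batf, was at 0.2 and 55.5 TPM in Chd8-/- replicates 1 and 2 and at 0.3 and 23.7 TPM in WT replicates 1 and 2. Effector cytokines outside the fit were unevenly spread over single libraries. Il13 was at 37.0 TPM in Chd8-/- replicate 2 and at 0.4 TPM or less in the others, Il22 at 4.7 TPM in Chd8-/- replicate 2 and at 0.1 TPM or less in the others, and Il5 at 11.6 TPM in WT replicate 1 and at 0.1 TPM or less in the others. Il17a was at 0.2 TPM or less in all 4 libraries. The study's protein results for interleukin-13 and interleukin-17 came from stimulated cells (above).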
